A study of Mus musculus with 17 samples.

Results

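Fatty acids reach a kidney cell from circulating albumin or from lipoproteins, are bound inside the cell, and are then burned in mitochondria and peroxisomes or stored as triglyceride in lipid droplets. The transporters CD36 and FATP2 bring them in, cytosolic fatty acid binding proteins carry them, and lipoprotein lipase with its inhibitor ANGPTL4 frees them from triglyceride-rich particles. DGAT enzymes close triglyceride synthesis, PLIN2 coats the droplet, and ATGL opens its breakdown. Proximal tubule cells depend on fatty acid oxidation, and lipid build-up in tubules is a known feature of diabetic kidneys. Described here are the 10 genes of this route that were listed by symbol, Cd36, Slc27a2, Fabp1, Fabp3, Lpl, Angptl4, Plin2, Dgat1, Dgat2 and Pnpla2, out of 55487 gene identifiers in the count table. All 10 were found in the table, and 9 of them had enough counts to be tested, Fabp1 being the exception.

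Each library came from the kidney of 1 male mouse, 16 weeks old, and there were 9 db/db and 8 db/m animals of the strain BKS.Cg-Dock7m +/+ Leprdb/J. The db/db mice are labelled WT/HO, which in the usual notation of the strain means wild type for the coat colour allele Dock7m and homozygous for the leptin receptor mutation Leprdb. The db/m mice are labelled HE/HE, heterozygous for both, so the groups differ at both loci and an effect of Dock7m cannot be told apart from one of Leprdb. Mice homozygous for Leprdb lack the long form of the leptin receptor in the whole body, overeat and become obese and diabetic, whereas db/m mice stay lean. Groups were taken from the sample titles, while the genotype field names the other genotype for each of the 17 samples and was taken as swapped. If that field were right, every direction below would turn round. Lepr itself had 1.92 ± 1.42 CPM in db/db kidneys and 3.77 ± 1.92 CPM in db/m kidneys (CPM, gene counts divided by library size and scaled to a common total; mean ± SD, n = 9 and 8) and was not called (edgeR adjusted p = 0.211). Reads from the 3′ end of the gene do not check this genotype.

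The libraries were made with a 3′ end method, QuantSeq, in which 1 read stands for 1 transcript end whatever the transcript's length. They held 3256427 to 7627747 gene counts, so that 3 counts, taken as the limit that a count of 0 allows, corresponded to 0.380 to 0.929 CPM. Db/db replicate 8 and db/m replicate 8 lay at opposite ends of the first principal component, at 79.2 and -44.3. Reads outside genes took 18.3% ± 2.29 of the reads in db/db and 20.2% ± 0.451 in db/m libraries (exact permutation p = 0.0378), and ambiguous reads took 0.567% ± 0.0308 in db/db and 0.503% ± 0.0222 in db/m libraries (exact permutation p = 0.000535). Their part in the results below was not tested. Kidney pieces can carry fat and muscle, and a few libraries stood apart in their markers. Summed over 8 adipocyte markers, the levels ran from 32.5 to 633 CPM in db/db kidneys and from 59.0 to 669 CPM in db/m kidneys, with db/db replicate 9 and db/m replicate 8 far above the rest. Muscle markers, also 8, summed to between 1.01 and 66.8 CPM in db/db kidneys and between 9.15 and 312 CPM in db/m kidneys, where replicates 1 and 7 stood at 312 and 242 CPM. The podocyte, endothelial and tubule markers of kidney were all detected, whereas the adrenal markers Cyp11b2 and Cyp21a1 had no count in any library.

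**Figure D1:**
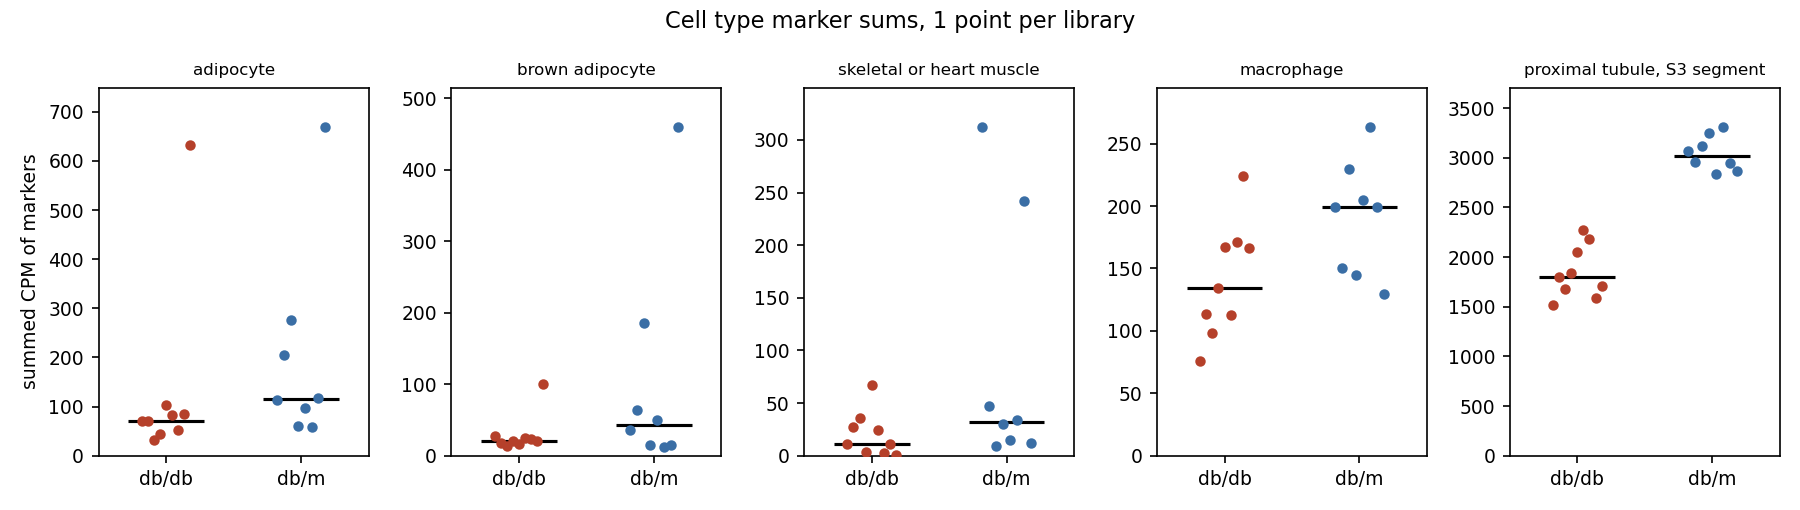
Summed CPM of fixed marker lists in each library, db/db on the left (n = 9) and db/m on the right (n = 8) of each panel, on linear axes that start at 0; points are libraries and short bars are group medians. Single libraries stood far above their group in the fat and muscle lists, and the S3 proximal tubule sums did not overlap between the groups, at 1514 to 2270 in db/db and 2835 to 3310 in db/m kidneys.

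Among the 9 tested genes, Cd36, Slc27a2 and Lpl fell in db/db kidneys, and Fabp3 and Dgat1 rose. Angptl4, Plin2, Dgat2 and Pnpla2 did not pass the test. The 5 called genes stand beside 7.39% of 12131 tested genes that were called, 3.91% higher and 3.49% lower in db/db kidneys. Calls came from the edgeR quasi-likelihood test with Benjamini-Hochberg adjustment over all tested genes, at a threshold of 0.05. The genes described here were listed with earlier results of these data known. Their share of called genes is therefore no test of the route. The median log2 fold change of the 9 genes was 0.08, beside 0.00 for all tested genes, since falls and rises stood side by side. In these bulk kidneys, fewer cells of a type and less RNA per cell cannot be told apart.

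**Figure D2:**
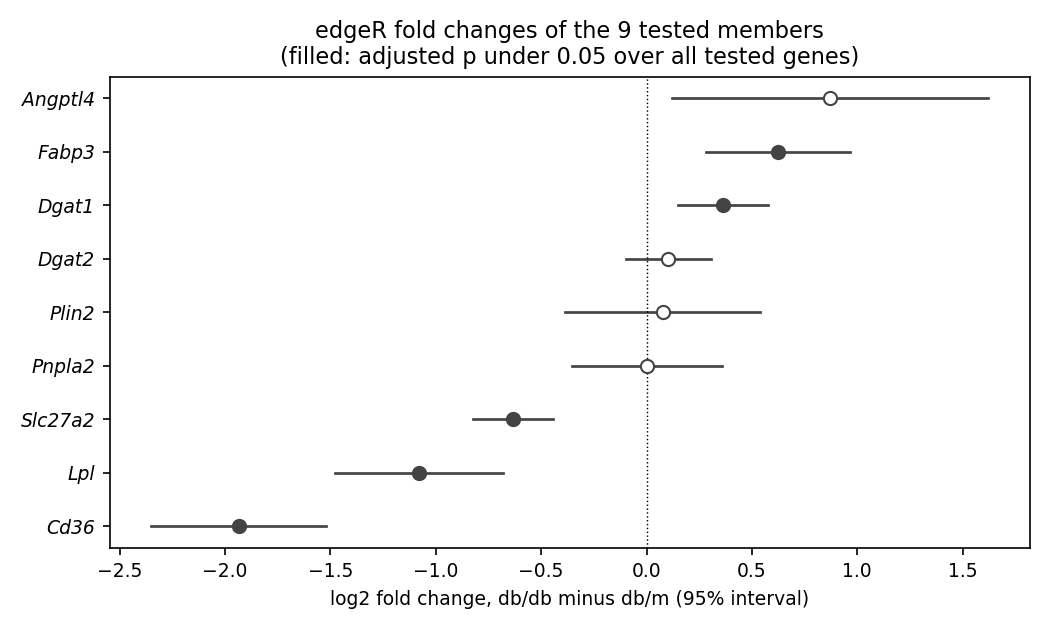
Log2 fold changes (db/db minus db/m) of the 9 tested genes with 95% intervals from edgeR, filled where the adjusted p over all tested genes was under 0.05. Cd36 fell by 1.93, Lpl by 1.08 and Slc27a2 by 0.63, while Fabp3 and Dgat1 lay above 0. Among the uncalled genes the intervals of Plin2, Dgat2 and Pnpla2 crossed 0, and that of Angptl4 began at 0.12.

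**Figure D3:**
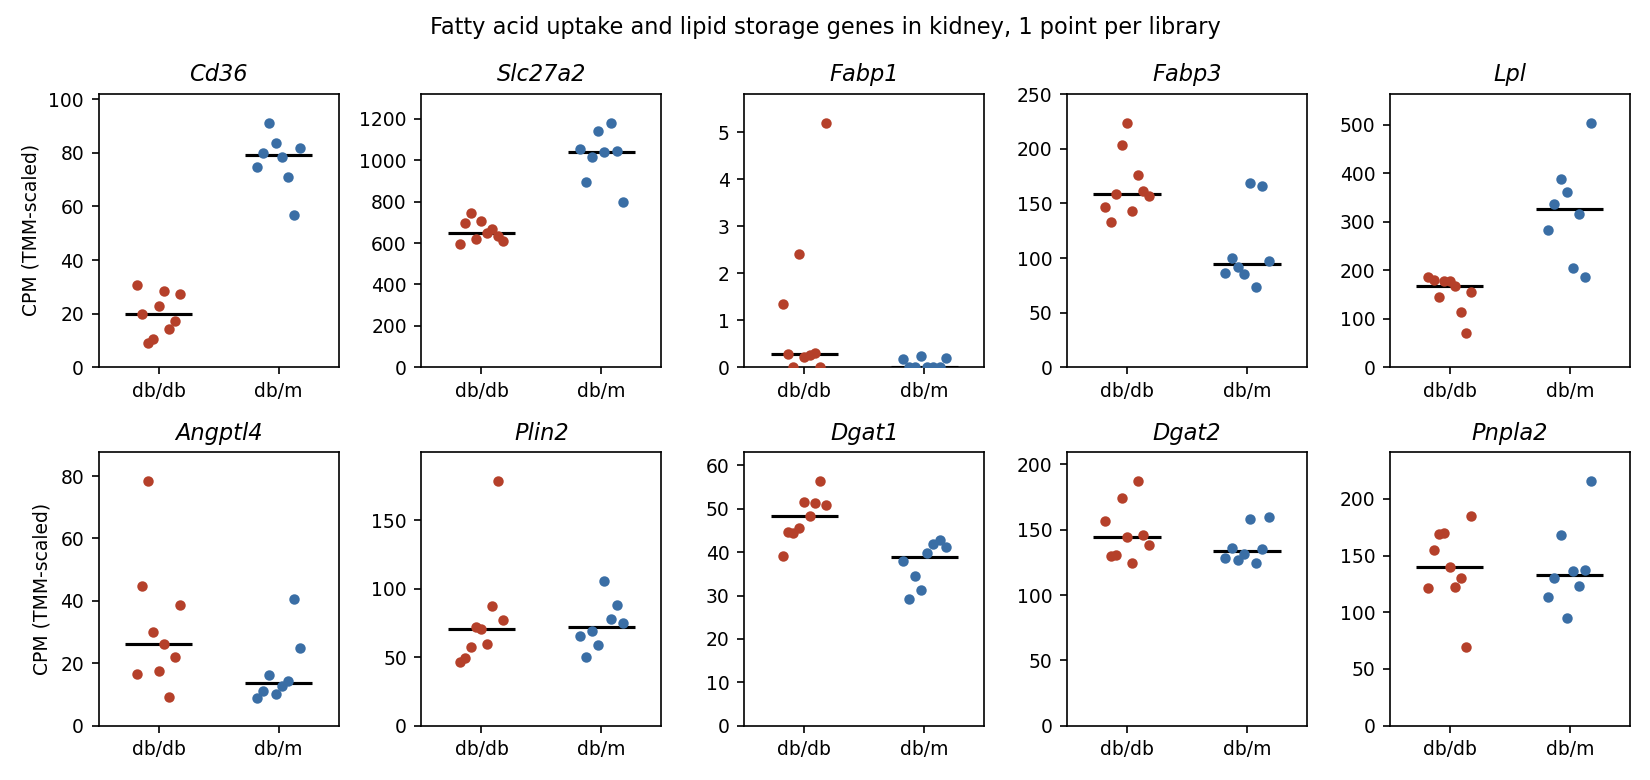
CPM of all 10 genes in each library, db/db on the left (n = 9) and db/m on the right (n = 8) of each panel, each panel with its own linear axis; points are libraries and short bars are group medians. The groups were separate for Cd36, Slc27a2 and Lpl, with Lpl separate only by the narrow gap between 185.8 CPM in db/db and 186.4 CPM in db/m kidneys.

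Transcripts of both listed transporters, Cd36 and Slc27a2, were lower in db/db kidneys, whereas the other tested FATP genes, Slc27a1, Slc27a3 and Slc27a4, were not called. Uptake itself was not measured. Cd36 (chromosome 5), the scavenger receptor that takes up long-chain fatty acids and oxidised lipoproteins, ran from 9.08 to 30.8 CPM with a median of 19.9 in db/db kidneys, against 56.9 to 91.2 CPM with a median of 79.1 in db/m kidneys. All 9 db/db kidneys lay below the lowest db/m kidney, and the lowest were db/db replicates 3 and 4. Cd36 fell by 1.93 on the log2 scale (SE 0.20, 95% interval -2.35 to -1.52, edgeR adjusted p = 1.43e-06), which is 0.262 times the db/m level. Permuting the libraries exactly between the groups gave p = 4.11e-05 for the mean log2 CPM (two-sided), the smallest these groups allow. Groups that do not overlap were found for 1.78% of all tested genes.

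Slc27a2 (chromosome 2) encodes FATP2, which imports fatty acids at the apical side of proximal tubule cells and activates very long chain fatty acids. It had the highest CPM of the 10 genes in both groups, at 596 to 747 CPM with a median of 650 in db/db kidneys and 798 to 1181 CPM with a median of 1042 in db/m kidneys. Again no db/db kidney reached the lowest db/m kidney. The fall was smaller than that of Cd36, 0.63 on the log2 scale (SE 0.09, 95% interval -0.82 to -0.44), and its error was narrow (edgeR adjusted p = 8.63e-05, exact permutation p = 4.11e-05). A long non-coding RNA, Gm26697, overlaps Slc27a2 on the opposite strand away from its 3′ end, and the strand setting of the counting is not given in the sources used here.

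Marker sums of several other cell types and tubule segments also differed between the groups, but not those of all. Counts of called markers stand beside the 7.39% called over all tested genes. The marker lists too were chosen with earlier results of these data known, so their shares are no test. Macrophage markers, a list of 8 genes, summed to 75.5 to 224 CPM in db/db kidneys and 129 to 263 CPM in db/m kidneys (exact permutation p = 0.0422, two-sided), although none of its 6 tested genes was called. Markers of the S3 segment, the last part of the proximal tubule, summed to 1514 to 2270 CPM in db/db and 2835 to 3310 CPM in db/m kidneys (exact permutation p = 4.11e-05), with 6 of 8 called lower and 1 higher. Those of the proximal tubule as a whole went the other way, at 15510 to 22725 CPM in db/db and 12607 to 17380 CPM in db/m kidneys (exact permutation p = 0.00387). Endothelial markers summed to 491 to 637 CPM in db/db and 516 to 650 CPM in db/m kidneys (exact permutation p = 0.669). Thick ascending limb markers summed to 1114 to 2834 CPM in db/db and 1651 to 3529 CPM in db/m kidneys (exact permutation p = 0.623). Of these 5 markers, 1 was called higher and 1 lower. Distal convoluted and connecting tubule markers summed to 2342 to 3896 CPM in db/db and 1479 to 2097 CPM in db/m kidneys (exact permutation p = 8.23e-05), with 4 of 6 called higher. Collecting duct markers summed to 763 to 1749 CPM in db/db and 352 to 993 CPM in db/m kidneys (exact permutation p = 0.000905), with 5 of 7 called higher. Podocyte markers summed to 152 to 226 CPM in db/db and 116 to 177 CPM in db/m kidneys (exact permutation p = 0.00156), with 2 of 5 called higher. The part of these differences in the falls of Cd36, Slc27a2 and Lpl and in the rises of Fabp3 and Dgat1 was not tested. Without the pair of libraries rich in adipocyte markers, Cd36 fell by 1.99 and Slc27a2 by 0.66 on the log2 scale, and both stayed called. The libraries kept still held adipocyte markers, and the part of fat in these falls was not tested.

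Cd36, Fabp1, Plin2 and Angptl4 are known targets of PPAR alpha, a fatty acid sensing receptor that pairs with RXR on a direct repeat. Other targets of this receptor are set beside the 10 genes below, and stretches of promoter are shown where they hold letters close to that repeat. RefSeq promoter windows of 300 bases (250 before and 50 after the start, build GRCm38.p6) were at hand for 6 of the 10 genes. They were searched on both strands for the letters AGGTCA, then any 1 base, then AGGTCA again, and mismatches were counted over these 12 fixed letters. Of 32851 windows in the table, 0.0396% held it without a mismatch, 0.554% with at most 1 mismatch and 3.86% with at most 2. Matches within 2 mismatches were found in Fabp1 (1 mismatch, chr6:71199787-71199849), Cd36 (2 mismatches, chr5:17835922-17835984) and Plin2 (2 mismatches, chr4:86670247-86670309). They are printed on the strand of the gene, with the 13 matched bases in capitals, which read as the reverse complement of the consensus and so lie on the opposite strand. The match lay 67 to 55 bases before the start in Fabp1, 63 to 51 in Cd36 and 225 to 213 in Plin2. The bases after the start matched the beginning of 1 GENCODE M21 transcript each for Fabp1 and Plin2 but of 0 for Cd36, so the start and strand of the Cd36 window rest on the RefSeq table alone.
Fabp1: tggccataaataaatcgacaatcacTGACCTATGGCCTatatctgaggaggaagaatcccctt
Cd36: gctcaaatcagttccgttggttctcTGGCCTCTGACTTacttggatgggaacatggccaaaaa
Plin2: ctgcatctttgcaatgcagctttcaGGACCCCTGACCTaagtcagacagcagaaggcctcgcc
The best matches in the windows of Slc27a2, Fabp3 and Pnpla2 had 3, 4 and 5 mismatches, which says only that closer letters are not in those windows. The 3 genes with such a match went different ways in db/db kidneys, Cd36 being lower, Plin2 uncalled and Fabp1 counted mostly in db/db libraries.

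Of the intracellular carriers, Fabp3 rose in db/db kidneys and Fabp1 was scarcely counted in either group. Fabp3 (chromosome 4), the heart-type fatty acid binding protein, ran from 133 to 224 CPM with a median of 159 in db/db kidneys and from 73.3 to 169 CPM with a median of 94.3 in db/m kidneys. The groups overlapped through db/m replicates 5 and 7, at 169 and 166 CPM, while the other 6 db/m kidneys lay at or below 100.1 CPM and below every db/db kidney. Fabp3 rose by 0.62 on the log2 scale (SE 0.16, 95% interval 0.28 to 0.96, edgeR adjusted p = 0.0211; exact permutation p = 0.00280). Without db/db replicate 9 and db/m replicate 8, whose adipocyte markers were high, the change was 0.61 but the adjusted p was 0.0622. The call was also lost when db/m replicate 4, db/m replicate 6 or db/db replicate 5 was left out. Muscle also makes this protein, and without db/m replicates 1 and 7, whose muscle markers were high, Fabp3 rose by 0.71 (edgeR adjusted p = 0.0178). The part of fat and muscle in the rise of Fabp3 was not tested. The 3′ end of Fabp3 overlaps Zcchc17 on the opposite strand, which was at 38.5 ± 6.89 CPM in db/db and 42.8 ± 4.04 CPM in db/m kidneys (edgeR adjusted p = 0.468).

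Fabp1 (chromosome 6), the liver-type binding protein, had 59 counts over the 9 db/db libraries and 3 counts over the 8 db/m libraries. Of the db/db counts, 41 came from replicate 9, 8 from replicate 4 and 6 from replicate 1, and 2 db/db libraries had none. In db/m kidneys 3 libraries had 1 count each and 5 had none. Pooled over libraries, the ratio of db/db to db/m was 18.4, with a 95% interval from 5.99 to 91.7 that covers counting error only. Without db/db replicate 9 there were 18 counts in db/db and 3 in db/m kidneys, a ratio of 6.97 (2.03 to 36.9). A fit without the filter on low counts, over 25107 genes, called the gene higher in db/db kidneys (edgeR adjusted p = 0.0285), but not without db/db replicate 9 (edgeR adjusted p = 0.162) nor when any 1 of 5 other libraries was left out. Exact permutation of the libraries gave p = 0.0251 for the mean log2 CPM, two-sided. Liver markers, a list of 6 genes, summed to 43.6 to 95.9 CPM in db/db and 37.2 to 70.4 CPM in db/m kidneys (exact permutation p = 0.0925). Its 3 tested genes are named after their values were seen. Apoa2 was called higher (log2 fold change 1.34, edgeR adjusted p = 0.0281), beside 3.91% of all tested genes. Alb (1.02, edgeR adjusted p = 0.0510) and Serpina1a (-0.19, edgeR adjusted p = 0.610) were not called. Serpina1a took much of the sum, at a mean of 36.8 CPM in db/db and 41.7 CPM in db/m kidneys. Db/db replicates 9 and 4 had the highest sums, 95.9 and 82.4 CPM, while replicate 1 had the lowest db/db sum, 43.6 CPM. The part of liver markers in the Fabp1 counts was not tested.

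Lipoprotein lipase hydrolyses the triglyceride of chylomicrons and very low density lipoproteins at the vessel wall, and its transcript fell in db/db kidneys. Lpl (chromosome 8) ran from 71.4 to 185.8 CPM with a median of 166 in db/db kidneys, against 186.4 to 504 CPM with a median of 326 in db/m kidneys. Within db/m kidneys replicates 7 and 5 were lowest, at 186 and 205 CPM, and replicate 8 was highest. Within db/db kidneys replicate 8 was lowest and the other 8 lay at 114 CPM or above. Lpl fell by 1.08 on the log2 scale (SE 0.19, 95% interval -1.48 to -0.68, edgeR adjusted p = 0.000835; exact permutation p = 4.11e-05). Adipocytes and muscle make much of this enzyme. Without the adipocyte-rich pair of libraries Lpl fell by 0.96 (edgeR adjusted p = 0.00323). Without the muscle-rich pair it fell by 1.20 (edgeR adjusted p = 0.000472). Both pairs were chosen after seeing the data, and the libraries kept still held such markers. Db/m replicates 2 and 3, for example, had adipocyte sums of 205 and 276 CPM. The part of fat and muscle in the fall of Lpl was not tested.

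Angptl4 (chromosome 17), a secreted inhibitor of lipoprotein lipase and a classical PPAR target, did not pass the test. It ran from 9.29 to 78.3 CPM with a median of 26.1 in db/db kidneys and from 8.77 to 40.5 CPM with a median of 13.6 in db/m kidneys. Db/db replicate 3 was highest among all libraries, and db/m replicate 7 was highest among db/m kidneys. The difference of 0.87 on the log2 scale had a 95% interval from 0.12 to 1.62 and an edgeR adjusted p of 0.161 (exact permutation p = 0.0693). It was called, at 1.17 and an edgeR adjusted p of 0.0423, when db/m replicate 7 was left out.

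Genes that act around lipoprotein lipase were followed in a list of 14, of which 9 were tested. Of these, 4 rose in db/db kidneys and none fell, with a median log2 fold change of 0.34. Over all tested genes 3.91% were called higher and 3.49% lower. This list too was chosen with earlier results of these data known, so its share is no test of the role. Apoc3, an apolipoprotein that hinders the lipase, was at 28.8 ± 6.73 CPM in db/db and 13.04 ± 4.38 CPM in db/m kidneys (log2 fold change 1.13, edgeR adjusted p = 0.000739). Apoe, the ligand by which remnant particles are cleared, was at 527 ± 151 CPM in db/db and 258 ± 53.1 CPM in db/m kidneys (log2 fold change 1.03, edgeR adjusted p = 0.000382). Lmf1, which helps the lipase to fold, rose by 0.42 (edgeR adjusted p = 0.0382), a call lost in 11 of 17 leave-one-out fits. Apoc2, the activator of the lipase, had no count in any library.

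Of the enzymes that close triglyceride synthesis, Dgat1 rose in db/db kidneys and Dgat2 was not called. Dgat1 (chromosome 15), which joins the last acyl chain to diacylglycerol, ran from 39.1 to 56.3 CPM with a median of 48.3 in db/db kidneys and from 29.2 to 42.7 CPM with a median of 38.9 in db/m kidneys. Db/db replicate 1 lay inside the db/m range, and the other 8 db/db kidneys lay above it. Dgat1 rose by 0.36 on the log2 scale (SE 0.10, 95% interval 0.15 to 0.58, edgeR adjusted p = 0.0333; exact permutation p = 0.000699). The call lay close to the threshold and was lost in 8 of 17 leave-one-out fits: without db/m replicates 1, 2, 3 or 4 or db/db replicates 5, 6, 7 or 9. The 3′ end of Dgat1 adjoins that of Hsf1 on the opposite strand, which was at 7.49 ± 2.81 CPM in db/db and 9.85 ± 3.54 CPM in db/m kidneys (edgeR adjusted p = 0.373).

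Dgat2 (chromosome 7), an unrelated enzyme that catalyses the same step, ran from 124.5 to 187 CPM with a median of 144 in db/db kidneys and from 124.7 to 159.9 CPM with a median of 134 in db/m kidneys. The lowest kidneys of both groups were alike, 2 db/db kidneys lay above the highest db/m kidney, and the log2 fold change was 0.10 with a 95% interval from -0.10 to 0.31 (edgeR adjusted p = 0.594). Counts from 3′ ends do not grow with transcript length, so the counts of both enzymes are set side by side. They can still depend on how fully the end of each gene was annotated and counted, which was not tested. Dgat2 had more counts than Dgat1 in all 17 libraries, by 2.58 to 4.66 times.

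Plin2 (chromosome 4), the droplet coat protein found in most tissues, ran from 46.2 to 178.5 CPM with a median of 70.9 in db/db kidneys and from 50.4 to 106 CPM with a median of 71.8 in db/m kidneys. Db/db replicate 8 stood alone at 178.5 CPM, and the other db/db kidneys lay between 46.2 and 87.6 CPM, inside or below the db/m range. The log2 fold change was 0.08 with a 95% interval from -0.38 to 0.54 (edgeR adjusted p = 0.889). Without the libraries at both ends of the first principal component, one of which was db/db replicate 8, it was -0.19 (edgeR adjusted p = 0.559).

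Pnpla2 (chromosome 7) encodes ATGL, which removes the first acyl chain from stored triglyceride. It ran from 69.0 to 185 CPM with a median of 139.7 in db/db kidneys and from 94.6 to 215 CPM with a median of 133 in db/m kidneys. Here the same db/db replicate 8 was lowest, at 69.0 CPM, whereas the other db/db kidneys lay between 121.5 and 185 CPM. The log2 fold change was 0.00 with a 95% interval from -0.35 to 0.36 (edgeR adjusted p = 0.993).

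Ranked by median CPM, db/db kidneys had the order Slc27a2, Lpl, Fabp3, Dgat2, Pnpla2, Plin2, Dgat1, Angptl4, Cd36 and Fabp1. Db/m kidneys had the order Slc27a2, Lpl, Dgat2, Pnpla2, Fabp3, Cd36, Plin2, Dgat1, Angptl4 and Fabp1. Slc27a2 exceeded Lpl in all 17 libraries, while Fabp3 exceeded Lpl in 6 of 9 db/db kidneys and in 0 of 8 db/m kidneys. In db/db kidneys every pair of neighbours from Lpl down to Cd36 overlapped in range, and only Slc27a2 at the top and Fabp1 at the bottom stood clear of theirs. In db/m kidneys Lpl was also clear of Dgat2, and Plin2 of Dgat1, while the pairs from Dgat2 down to Plin2 and the pair of Dgat1 and Angptl4 overlapped.

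How the genes varied beyond the group difference was read from log2 CPM centred on each group's mean, over 17 libraries and 36 pairs of the 9 tested genes. Plin2 and Dgat1 went together, with Pearson's r = 0.773 (permutation within groups p = 8.00e-05, adjusted 0.00288) and Spearman's rho = 0.841 (permutation p = 2.00e-05, adjusted 0.000720). Within db/db kidneys r was 0.847 and within db/m kidneys 0.821, and without db/db replicates 8 and 1 it was 0.765. Lpl and Plin2 went against each other, with r = -0.755 (permutation p = 0.00179, adjusted 0.0322) but rho = -0.603 (permutation p = 0.0132, adjusted 0.119). Without db/db replicate 8 and db/m replicate 7 that r was -0.52, so the relation rests in part on these libraries. No other pair passed the threshold by r. The libraries share depth and tissue make-up, so these p-values do not show a relation particular to a pair. In Plin2, in Dgat1 and on the first principal component, db/db replicate 8 was highest and replicate 1 lowest of their group. In Lpl replicate 8 was lowest and replicate 1 highest. Db/m replicate 8, lowest on that component at -44.3, had 74.7 CPM of Plin2, above the db/m median of 71.8. The part of this component in the pairs was not tested.

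**Figure D4:**
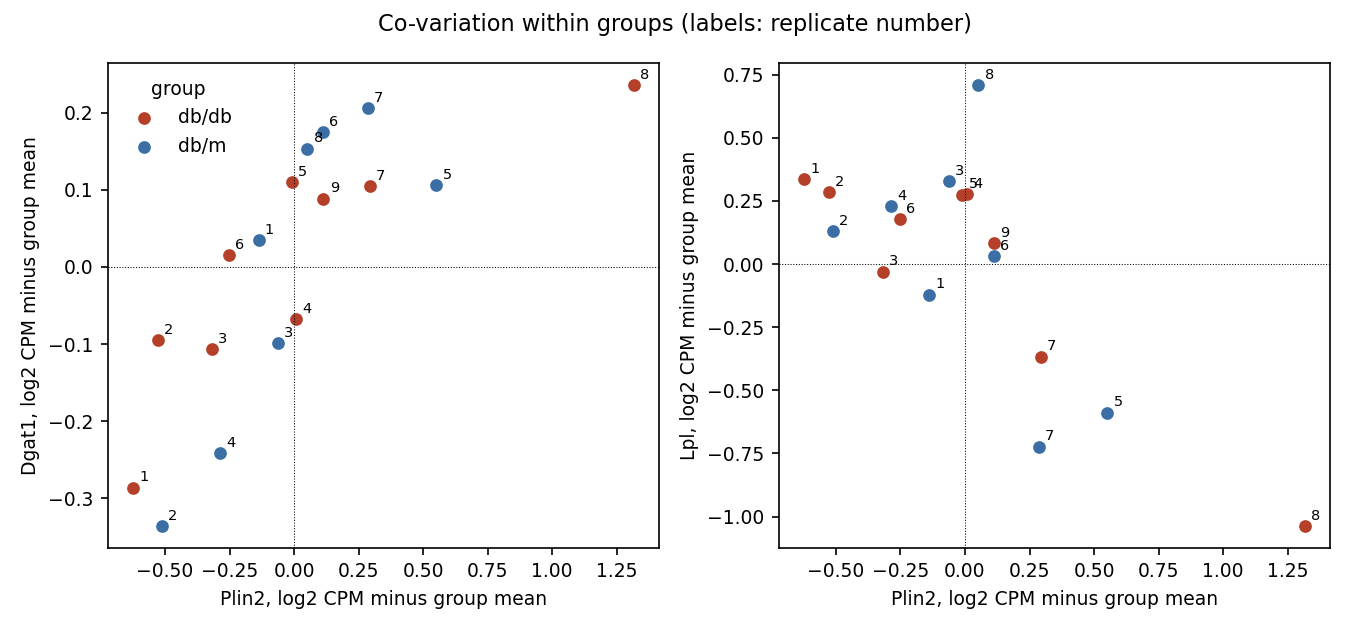
Log2 CPM minus the group mean in each library, for Dgat1 (left panel, vertical axis) and Lpl (right panel, vertical axis) against Plin2 (horizontal axes); points are 9 db/db and 8 db/m libraries, labelled by replicate number. Dgat1 went up with Plin2 (r = 0.773) and Lpl went down with it (r = -0.755), with db/db replicate 8 at the far right of both panels.

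Among 8568 other genes averaging 3 or more in log2 CPM, the closest to each member by the same centred r are given as a description, since libraries share depth and tissue make-up. Plin2 was closest to Clpb and Adtrp (r = 0.95 for both), Lpl to Gse1 (0.94) and Mif4gd (0.93), and Pnpla2 to Ifrd1 (0.91) and Cavin3 (0.90). Dgat2 was closest to Sra1 (0.88) and Ndufb6 (0.78), Dgat1 to Desi1 and Lamb2 (0.87 for both), and Fabp3 to Rplp0 (0.87) and Smim5 (0.85). Cd36 was closest to Nmnat1 (0.79) and Smc2 (0.76), Slc27a2 to Os9 (0.78) and Glis3 (0.69), and Angptl4 had Dhx40 (0.77) among its closest.

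The rest of the route was followed in 122 listed genes with 8 roles, of which 97 were tested. Of these, 14 rose and 5 fell in db/db kidneys, and the median log2 fold change was 0.14. Over all tested genes 7.39% were called, 3.91% higher and 3.49% lower. The lists were chosen with earlier results of these data known, so their shares of called genes are no test of the roles. Among other uptake and carrier genes, 1 of 12 tested rose and none fell (median 0.21), a share near that over all tested genes. That gene was Got2, a mitochondrial aminotransferase also described as a fatty acid binding protein of the membrane, at 387 ± 76.5 CPM in db/db and 285 ± 53.9 CPM in db/m kidneys (edgeR adjusted p = 0.0463). Its call was lost in 13 of 17 leave-one-out fits. None of the acyl-CoA synthetases or other FATP genes on the list that were tested was called.

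In triglyceride and sterol ester synthesis, 1 of 14 tested genes rose and 1 fell (median 0.28), beside 3.91% and 3.49% of all tested genes. Mogat2, a monoacylglycerol acyltransferase, was at 7.59 ± 2.33 CPM in db/db and 4.54 ± 1.07 CPM in db/m kidneys (edgeR adjusted p = 0.0352). Soat1, which esterifies cholesterol, was at 14.9 ± 4.05 CPM in db/db and 22.01 ± 2.98 CPM in db/m kidneys (edgeR adjusted p = 0.0296). Leaving out single libraries ended the call in 9 of 17 fits for Mogat2 and in 7 of 17 for Soat1. In the list of droplet coat and assembly genes, 1 of 15 tested fell and none rose (median 0.01). That share is near the 7.39% called over all tested genes. The gene that fell was Hsd17b11, a droplet-bound dehydrogenase, at 145 ± 14.5 CPM in db/db and 430 ± 82.4 CPM in db/m kidneys without overlap (log2 fold change -1.57, SE 0.11, edgeR adjusted p = 8.35e-09).

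Among lipolysis genes, 2 of 11 tested rose and 1 fell (median 0.04), beside 3.91% and 3.49% of all tested genes. Mgll, which completes the breakdown of triglyceride to glycerol, was at 150.2 ± 30.5 CPM in db/db and 83.8 ± 27.6 CPM in db/m kidneys (log2 fold change 0.84, edgeR adjusted p = 0.00281). Abhd6, another monoacylglycerol lipase, was at 42.01 ± 9.42 CPM in db/db and 25.7 ± 4.03 CPM in db/m kidneys without overlap (log2 fold change 0.70, edgeR adjusted p = 0.00150). Ces1f, a carboxylesterase, was at 74.3 ± 27.4 CPM in db/db and 214 ± 54.03 CPM in db/m kidneys without overlap (log2 fold change -1.53, edgeR adjusted p = 1.38e-05). The Ces1 genes are close copies of each other, so reads may have been shared between them. Of the 6 lipoprotein assembly and export genes, Tm6sf2, a promoter of triglyceride loading onto lipoproteins in liver, was the 1 that rose. Over all tested genes 3.91% were called higher. Tm6sf2 was at 27.2 ± 9.23 CPM in db/db and 11.7 ± 2.89 CPM in db/m kidneys (log2 fold change 1.21, edgeR adjusted p = 0.000304).

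**Figure D5:**
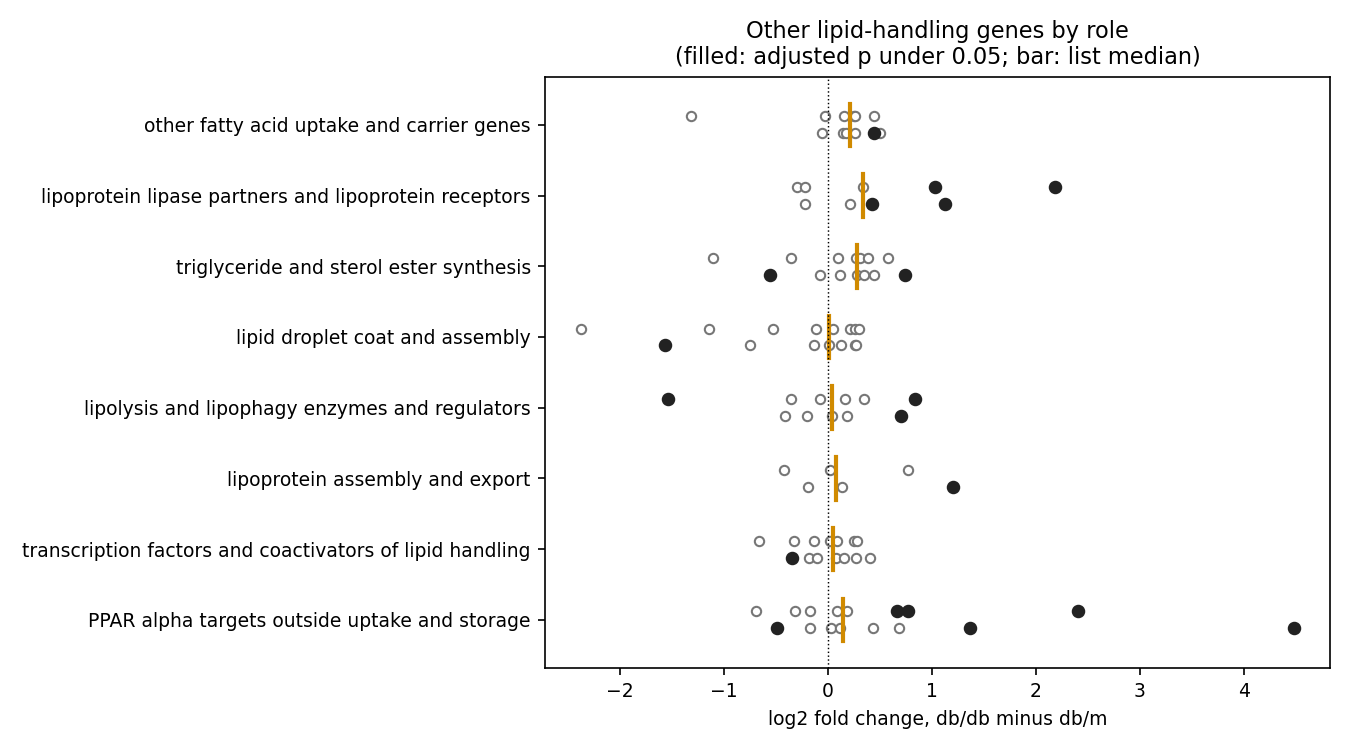
Log2 fold changes (db/db minus db/m) of the tested genes of 8 role lists, 1 point per gene, filled where the adjusted p over all tested genes was under 0.05, with a bar at each list's median. Most points lay near 0, and the highest value belonged to Cyp4a14 at 4.49.

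Of 14 tested transcription factors and coactivators, 1 fell and none rose (median 0.05), a share near the 7.39% called over all tested genes: Mlxipl, the carbohydrate response factor ChREBP, at 131 ± 19.2 CPM in db/db and 167 ± 19.9 CPM in db/m kidneys (edgeR adjusted p = 0.0413, lost in 14 of 17 leave-one-out fits). Targets of PPAR alpha outside uptake and storage were a list of 18, of which 16 were tested. Of these, 5 rose and 1 fell (median 0.15), beside 3.91% and 3.49% of all tested genes. Cyp4a14, a fatty acid omega-hydroxylase, was at 405 ± 114 CPM in db/db and 18.1 ± 18.9 CPM in db/m kidneys without overlap (log2 fold change 4.49, SE 0.44, edgeR adjusted p = 7.20e-07). Cyp4a10 was at 447 ± 184 CPM in db/db and 173 ± 57.1 CPM in db/m kidneys (log2 fold change 1.37, edgeR adjusted p = 0.000548), with the limit that Cyp4a genes are near-identical in part. Acot2, a mitochondrial acyl-CoA thioesterase, was at 274 ± 126 CPM in db/db and 160.1 ± 32.7 CPM in db/m kidneys (edgeR adjusted p = 0.0218).

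Acot1, named after its values were seen, is the cytosolic relative of Acot2 and close to it in sequence. It was at 46.1 ± 9.38 CPM in db/db and 28.8 ± 11.2 CPM in db/m kidneys (edgeR adjusted p = 0.0352), a call lost in 11 of 17 leave-one-out fits.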

How the data were processed

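Kidney libraries of 9 db/db and 8 db/m mice were compared. The deposited file holds unnormalised read counts per gene. STAR 2.7.3a and HTSeq 2.16.2 are the tools named in the submitters' processing notes, which give only the human build GRCh38, although the identifiers are mouse Ensembl genes, and the label protocol speaks of cultured cells, although the tissue field gives kidney. Neither the mouse build nor the strand setting nor the use of molecular identifiers is given in the sources used here. Reads outside genes (19.3%) and ambiguous reads (0.533%) were left out. Symbols were found for 55141 of 55487 identifiers. Chromosomes and overlaps come from the gene positions in GENCODE M21, and these positions are not printed here.

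All 17 libraries were fitted together with edgeR 4.0.16 in R 4.3.3 (TMM, filterByExpr with a minimum count of 10, quasi-likelihood F-test, robust option off, no covariate). P-values were adjusted over 12131 genes by the Benjamini-Hochberg method, and genes under 0.05 were called. Log2 fold changes have db/m subtracted from db/db, intervals are at the 95% level, CPM uses TMM library sizes, and log2 CPM has a prior count of 2. Counting intervals and limits cover counting error only. Permutation tests were two-sided and exact over libraries, except correlations (100000 permutations within groups, adjusted over 36 pairs).

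Library numbers are lower in all db/m than in all db/db libraries, and a batch along these numbers cannot be told apart from the group. Same-numbered libraries of both groups had correlations from -0.454 to 0.212, with 2 of 8 over 0.1, so the numbers were not taken as pairs.

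The 10 genes and all lists were chosen with earlier results of these data known. Named are those 10 and Lepr, up to 4 called genes per role list by smallest p, marker genes without any count, and the 2 most similar genes of each tested member, taken among genes averaging 3 or more in log2 CPM. Some genes that this rule names are not reported here. DESeq2 1.42.0, limma 3.58.1 (voom), other scalings and filters, a replicate block and leaving out each library were tried. Leaving out 3 pairs of libraries was chosen after seeing the data.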

Additional observations from a re-analysis of the deposited data

Results flagged for a closer look

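In 14 of 90 groups of values, 1 library lay farther from its group than the 95% critical value of Dixon's test, which chance exceeds in about 1 group in 20. Among the 10 genes this was Plin2 at 178.5 CPM and Pnpla2 at 69.0 CPM, both in db/db replicate 8, while the other db/db kidneys lay at 46.2 to 87.6 and 121.5 to 185 CPM. The same library had the highest Acot2, at 584 CPM. Apoc3 was lowest in db/db replicate 1, at 15.4 CPM, and Soat1 was lowest among db/m kidneys in replicate 7, at 15.8 CPM.

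Adipocyte markers summed to 633 CPM in db/db replicate 9 and to 669 CPM in db/m replicate 8. Brown adipocyte markers summed to 99.9 CPM in db/db replicate 9 and to 460 CPM in db/m replicate 8. Adrenal cortex markers summed to 5.28 CPM in db/db replicate 3. In db/db replicate 1 endothelial markers summed to 491 CPM and thick ascending limb markers to 1114 CPM, each the lowest of its group. Db/db replicate 9 had the most gene counts, 7627747, and db/m replicate 8 the most detected genes, 19328. None of these values was traced to a cause.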

How the results depend on the processing

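The falls of Cd36, Slc27a2 and Lpl kept their call under each of 12 other settings and when each of the 17 libraries was left out. Leaving out single libraries gave -2.02 to -1.84 for Cd36, -0.68 to -0.60 for Slc27a2 and -1.16 to -0.96 for Lpl. It gave 0.55 to 0.76 for Fabp3, 0.32 to 0.40 for Dgat1, 0.57 to 1.17 for Angptl4, -0.18 to 0.18 for Plin2 and -0.056 to 0.12 for Pnpla2. Fabp1, in fits without the filter, ran from 2.52 to 3.82. Of the 9 tested genes, which leave out Fabp1, 3 to 6 were called in these fits, 0 to 3 of them higher. All genes called then numbered 637 to 1237 (319 to 666 higher, 318 to 571 lower) and genes of the role lists 12 to 26, beside 897 and 19.

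With the replicate number as a block, 425 genes were called (194 higher, 231 lower), 12 of the role lists and 1 of the 9 tested genes as higher. The libraries do not bear out these numbers as a pairing, since 0 of 8 correlated best with their own number. Under that block Dgat1 was at 0.36, Plin2 at -0.032 and Pnpla2 at -0.048. Without a filter Dgat1 was at 0.37 (adjusted p = 0.0914). With limma-voom Plin2 was at -0.0097 and Pnpla2 at -0.0054.

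Without the adipocyte-rich pair 314 genes were higher, and 3 of the 9 tested genes were called, 0 of them higher. Fabp3 was then at 0.61, Dgat1 at 0.37 and, in a fit without the filter, Fabp1 at 2.77 (edgeR adjusted p = 0.156). Without the muscle-rich pair 1 of the 9 was higher, with Dgat1 at 0.41 and Pnpla2 at -0.043. Without the ends of the first component 1 was higher, with Dgat1 at 0.35 and Plin2 at -0.19. DESeq2, run without the filter on low counts, called 1237 of 17319 genes (635 higher, 602 lower). Library totals alone gave 605 higher and 372 lower of 12131 genes. The cause of these shifts was not tested. The Fabp1 fit was not run with mitochondrial genes left out, limma-voom, the robust option, the stricter filter, the block or the other 2 pairs. At these depths a transcript under 0.380 CPM could go uncounted in any library.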
